A study of Homo sapiens with 8 samples.

Results

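Trimethylation of lysine 4 on histone H3 (H3K4me3) was compared at 5 promoter regions in the multiple myeloma cell line MM1S by chromatin immunoprecipitation and sequencing. The regions are listed under the genes ATP2A3, HDGF, TRIM59, COX8A and SQRDL. They were chosen from the same data because each was called wider in every library from inhibitor-treated cells than in any control library, so their widths are given here as a description and carry no test. Of the 8 libraries, 3 were from MM1S cells treated for 7 days with KDM5-C70 at 50 uM, and 5 were from vehicle-treated (DMSO) cells, whose duration of treatment the labels leave unstated. All 8 libraries were made from the same line with the same antibody lot, and nothing in the labels says whether they came from separate cultures, so the spread between them may be technical. Merging the lists gave 50523 regions. All 8 libraries had a call in 13729 of them, and 131 of the 13729, these 5 included, met the same criterion. The cell type could not be checked against marker genes, since no gene annotation of the lists' build was used.

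H3K4me3 marks the promoters of active genes, where it is laid down by the SET1 and MLL methyltransferases and removed by the KDM5 family of demethylases. KDM5-C70 is a cell-permeable inhibitor of the KDM5 enzymes, so the comparison asks how the stretches carrying the mark differ when removal is impaired. In a list of the gapped type deposited here, each called region is the outer extent of the mark, and the inner segments within it are the stretches that passed a stricter limit. Absence of a call at a base is no measurement that the mark was absent there. Called bases and inner bases are therefore separate measures of the same region in the same library.

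The genes differ in their roles, though COX8A and SQRDL both act in mitochondria. ATP2A3 encodes SERCA3, a pump that moves calcium from the cytosol into the endoplasmic reticulum and is found mainly in blood and epithelial cells. HDGF is a heparin-binding growth factor that also sits in the nucleus and binds chromatin through a PWWP domain. TRIM59 is a membrane-anchored ubiquitin ligase of the tripartite motif family. COX8A is a small subunit of cytochrome c oxidase, the last complex of the respiratory chain. SQRDL, now named SQOR, is the sulfide:quinone oxidoreductase of the mitochondrial inner membrane, which starts the breakdown of hydrogen sulfide and passes electrons to ubiquinone.

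On GRCh37, counted from 1, the merged regions lie at chr17:3865549-3868949 for ATP2A3, chr1:156718555-156722401 for HDGF, chr3:160166052-160168176 for TRIM59, chr11:63741579-63743421 for COX8A and chr15:45926564-45929441 for SQRDL. The gene names are those under which the regions were listed. No annotation of GRCh37 was used, so exons, introns and start sites were not placed in them. The chromosome was the same in RefSeq's gene table of GRCh38.p14 for all 5 genes. RefSeq's promoter table of that build, which holds 250 bases before to 50 bases after a start site, matched 4 of the 5 genes, and ATP2A3 had no entry. HDGF had 4 entries and the one with the most GGGCGG matches is shown. The sequences are shown for the base composition and motifs of promoters that RefSeq gives these genes. Coordinates were not converted between builds, so whether a window lies inside a called region was not determined. They are printed 5′ to 3′ on the gene's strand, with matches to the searched motifs on either strand in capitals. No matches of different motifs overlapped.

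HDGF, GRCh38.p14, minus strand, chr1:156751626-156751925: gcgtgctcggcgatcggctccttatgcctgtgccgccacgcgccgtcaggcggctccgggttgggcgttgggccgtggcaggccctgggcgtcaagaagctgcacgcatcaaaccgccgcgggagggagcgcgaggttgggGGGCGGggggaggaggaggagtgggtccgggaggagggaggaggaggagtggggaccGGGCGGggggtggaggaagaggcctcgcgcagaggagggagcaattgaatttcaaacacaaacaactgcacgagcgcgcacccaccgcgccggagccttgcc
TRIM59, GRCh38.p14, minus strand, chr3:160449737-160450036: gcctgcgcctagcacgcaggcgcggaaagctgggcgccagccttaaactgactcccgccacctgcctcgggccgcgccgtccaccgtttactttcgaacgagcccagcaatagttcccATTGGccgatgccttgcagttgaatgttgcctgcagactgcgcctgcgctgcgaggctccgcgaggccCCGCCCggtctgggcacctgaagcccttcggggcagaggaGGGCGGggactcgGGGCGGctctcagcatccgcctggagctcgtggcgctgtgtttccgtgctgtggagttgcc
COX8A, GRCh38.p14, plus strand, chr11:63974370-63974669: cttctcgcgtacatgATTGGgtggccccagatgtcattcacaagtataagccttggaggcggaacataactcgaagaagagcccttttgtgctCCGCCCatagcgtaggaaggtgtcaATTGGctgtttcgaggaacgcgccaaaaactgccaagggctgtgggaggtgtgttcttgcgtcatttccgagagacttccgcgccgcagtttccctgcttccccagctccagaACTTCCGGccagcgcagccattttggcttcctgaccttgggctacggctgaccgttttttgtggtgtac
SQRDL (SQOR), GRCh38.p14, plus strand, chr15:45634779-45635078: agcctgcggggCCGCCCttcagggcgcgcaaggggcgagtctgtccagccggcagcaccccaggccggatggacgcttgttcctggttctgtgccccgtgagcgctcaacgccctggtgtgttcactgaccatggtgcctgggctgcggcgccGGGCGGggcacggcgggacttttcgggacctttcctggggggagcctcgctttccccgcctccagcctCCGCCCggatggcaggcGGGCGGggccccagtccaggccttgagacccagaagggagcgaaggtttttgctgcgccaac

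The motif GGGCGG, a GC box, matched 2 times in the printed HDGF entry, 3 times in TRIM59, 1 time in COX8A and 4 times in SQRDL. It is held by 45% of the 35116 promoters in the table. The HDGF entry was picked by its matches to this motif, so its count is not compared with that share. CCAAT matched 1 time in TRIM59 and 2 times in COX8A, against 34.6% of all promoters with at least 1 match. CCGGAAGT, an ETS-type motif, matched 1 time, in COX8A, and is held by 4.14% of all promoters. The motif TATAAA, held by 11.5% of all promoters, had no match in these 4 windows. Nor had the E-box CACGTG, held by 7.26%, or the motif GCGCATGC, held by 3.05%. GC content was 70.3% for HDGF, 67.7% for TRIM59, 55% for COX8A and 70.7% for SQRDL, against a median of 58.7% over the table, which only COX8A lay below. The ratio of observed to expected CpG was 0.896 for HDGF, 0.845 for TRIM59, 0.793 for COX8A and 0.695 for SQRDL, each above the table's median of 0.579. The other 3 HDGF entries ran from 47% to 75.3% GC and from 0.429 to 0.99 in CpG ratio, so HDGF lies on either side of the median depending on the entry. Of these 3, 2 had no GGGCGG match and 2 held CCAAT.

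Before the values, a property of the libraries has to be stated. KDM5-C70 1, DMSO 1 and DMSO 2 had shorter lists, of 17977, 20998 and 15323 regions, than the other 5 libraries, whose lists held 28195 to 37948. By the Jaccard index of called bases (bases called in both libraries over bases called in either), libraries overlapped at 0.56 to 0.734 within these sets and at 0.309 to 0.543 between them. The sets were recognised from the data and not from the labels, and values within each set are given below. The depth of the libraries is unknown. Over the 13729 regions, limma on log2 called bases passed 0 wider and 0 narrower regions at an adjusted p under 0.05 (percent called 0). At an unadjusted p under 0.05 it passed 131 wider and 111 narrower. With no difference anywhere, a share of about 0.05 of the regions would pass that limit, more than these counts together. With log2 widths centred on each library's median, the unadjusted counts were 466 wider and 678 narrower, and without KDM5-C70 1 they were 1755 wider and 113 narrower. With the set of libraries as a term, added after seeing the data, they were 1758 wider and 446 narrower, with 0 calls after adjustment. The median log2 change was 0.14, and -0.02 with centring. Every KDM5-C70 library was above every DMSO library in 131 regions (0.954%), the criterion that picked the 5, and below in 83 (0.605%).

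The 5 regions were 1.54 to 2.11 times as wide with KDM5-C70 on the mean, while the number of inner bases showed no such separation at any of them. At ATP2A3 the called width was 2213, 3141 and 3098 bp in KDM5-C70 libraries 1 to 3, and 1697, 1276, 1888, 1745 and 1828 bp in DMSO libraries 1 to 5. The narrowest inhibitor value was 325 bp above the widest control value. The means were 2817 ± 524 bp with KDM5-C70 (SD, n = 3) and 1687 ± 241 bp with DMSO (SD, n = 5), a log2 change of 0.74 (SE 0.19).

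At HDGF, the widest of the 5 regions, the called width was 2429, 3825 and 3704 bp in the KDM5-C70 libraries and 1975, 1363, 2377, 2053 and 2173 bp in the DMSO libraries. Its groups came closest to meeting, since KDM5-C70 1 lay only 52 bp above DMSO 3. The means were 3319 ± 773 bp with KDM5-C70 (SD, n = 3) and 1988 ± 381 bp with DMSO (SD, n = 5), and the log2 change was 0.73 (SE 0.22).

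TRIM59 had the highest relative change. Its called width was 1238, 1989 and 2067 bp with KDM5-C70, against 573, 509, 1109, 1105 and 891 bp with DMSO. Within the control group, DMSO 1 and 2 were well below DMSO 3, 4 and 5, and KDM5-C70 1 was likewise the narrowest of its group. The means were 1765 ± 458 bp with KDM5-C70 (SD, n = 3) and 837 ± 285 bp with DMSO (SD, n = 5), a log2 change of 1.11 (SE 0.33).

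The mitochondrial genes had the smaller relative changes and the tighter control values. At COX8A the called width was 1434, 1548 and 1777 bp with KDM5-C70, against 930, 893, 1102, 1076 and 1116 bp with DMSO. The means were 1586 ± 175 bp with KDM5-C70 (SD, n = 3) and 1023 ± 104 bp with DMSO (SD, n = 5), a log2 change of 0.63 (SE 0.19). At SQRDL it was 2061, 2274 and 2878 bp with KDM5-C70, against 1546, 1299, 1652, 1692 and 1627 bp with DMSO. The gap between the groups was the widest of the 5 here, at 369 bp. The means were 2404 ± 424 bp with KDM5-C70 (SD, n = 3) and 1563 ± 157 bp with DMSO (SD, n = 5), a log2 change of 0.61 (SE 0.17).

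**Figure D1:**
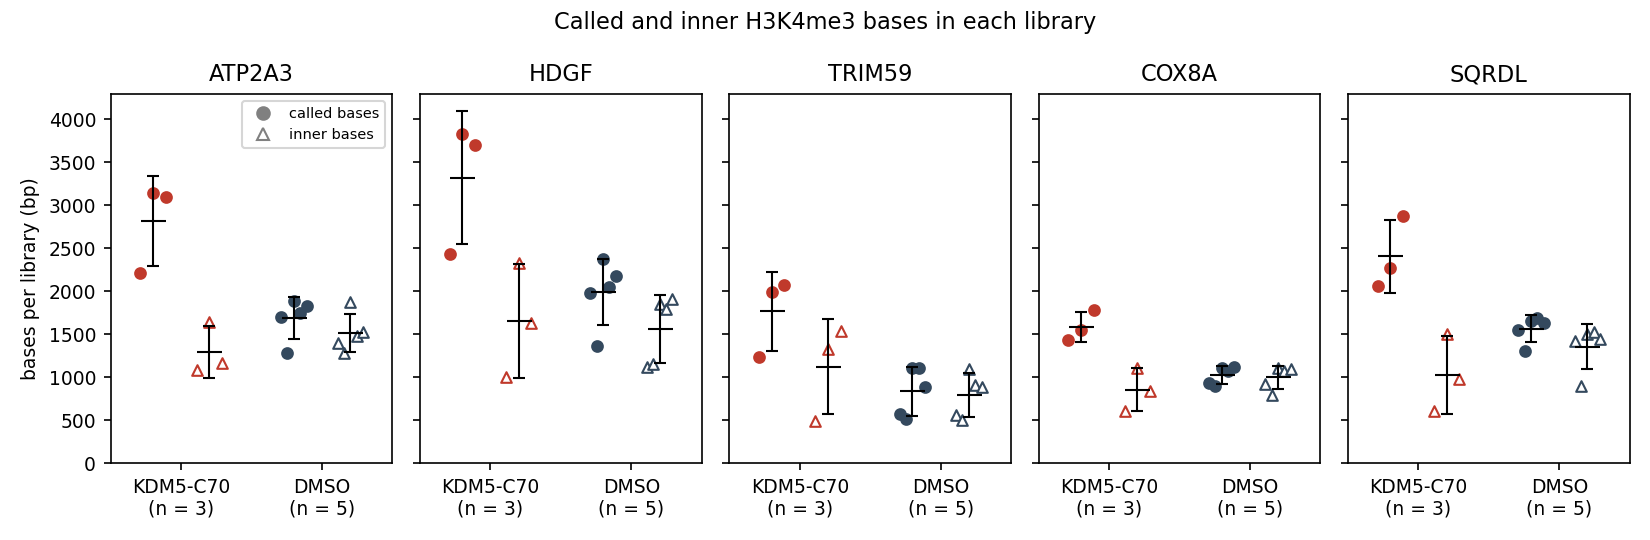
Called bases (filled circles) and inner bases (open triangles) in bp at each region, 1 point per library, with the mean and SD of the 3 KDM5-C70 and the 5 DMSO libraries. Called bases separate at every region, by 52 bp at HDGF to 369 bp at SQRDL, while inner bases overlap at every region.

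In bp, the difference was larger among the 5 libraries with long lists at each region. The difference was present in both sets, as the choice of regions requires. Over all regions the median log2 change of called bases was 0.14 with all libraries and 0.37 without KDM5-C70 1. How many of all regions differed more with long lists was not counted, so nothing is read from the members here. KDM5-C70 1 was 726.5 bp above the mean of DMSO 1 and 2 at ATP2A3, 760 bp at HDGF, 697 bp at TRIM59, 522.5 bp at COX8A and 638.5 bp at SQRDL. The mean of KDM5-C70 2 and 3 was 1299 bp above that of DMSO 3, 4 and 5 at ATP2A3, 1563.5 bp at HDGF, 993 bp at TRIM59, 564.5 bp at COX8A and 919 bp at SQRDL. At COX8A the sets gave nearly the same difference in bp, and at HDGF that in the 5 libraries was the greater by the most. Relative to the DMSO mean of the same set, the difference was larger in the short-list set at TRIM59 and COX8A. It was larger in the long-list set at ATP2A3, HDGF and SQRDL. The DMSO means at TRIM59 were 541 bp with short lists and 1035 bp with long lists, and at COX8A 911.5 and 1098 bp. Without KDM5-C70 1, the criterion would have passed 5481 of 13958 regions, so that library sets how short the list of such regions is.

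Inner bases overlapped between the groups at all 5 regions. Over the 13729 regions, every KDM5-C70 library was above every DMSO library in inner bases in 3 (0.0219%) and below in 309 (2.25%), and the 5 were in neither set. At ATP2A3 there were 1083, 1644 and 1161 inner bases with KDM5-C70 and 1401, 1276, 1869, 1485 and 1521 with DMSO, a log2 change of -0.23 (SE 0.22). At HDGF there were 998, 2327 and 1625 with KDM5-C70 and 1122, 1148, 1855, 1790 and 1911 with DMSO, a log2 change of 0.03 (SE 0.30). Neither change was much larger than its standard error.

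TRIM59 was the region with the highest inner value in KDM5-C70 libraries relative to DMSO, at 495, 1325 and 1540 inner bases against 558, 502, 1097, 910 and 891, and the log2 change was 0.41 (SE 0.42). Without KDM5-C70 1 it was 0.92, and without KDM5-C70 3 it was 0.10. KDM5-C70 1 lay below every DMSO library there, and KDM5-C70 2 and 3 above every one. COX8A had 612, 1109 and 844 with KDM5-C70 and 918, 798, 1102, 1076 and 1101 with DMSO, a log2 change of -0.26 (SE 0.29). SQRDL had 604, 1503 and 974 with KDM5-C70 and 1417, 895, 1499, 1522 and 1447 with DMSO, a log2 change of -0.47 (SE 0.32). The median log2 change of inner bases over the 12816 regions with inner segments in every library was -0.07. Within the set of 3 libraries, KDM5-C70 1 had fewer inner bases than the mean of DMSO 1 and 2 at all 5 regions, by differences of -35 bp at TRIM59 to -552 bp at SQRDL. Within the other 5 the difference was 466.5 bp at TRIM59, 124 bp at HDGF and negative at ATP2A3, COX8A and SQRDL. Without KDM5-C70 1, the median log2 change of inner bases over all regions with inner segments in every remaining library was 0.185. Differences within the sets were not counted over all regions, so nothing is read from those of the members.

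Inner segments thus filled a smaller share of a wider region. At ATP2A3 they filled 46.3 ± 7.79% of called bases with KDM5-C70 (SD, n = 3) and 89.97 ± 8.75% with DMSO (SD, n = 5). At COX8A the share was 53.9 ± 15.5% with KDM5-C70 and 97.3 ± 4.51% with DMSO, where DMSO 3 and DMSO 4 were filled to 100%. At TRIM59 it was 60.4 ± 18.1% with KDM5-C70 and 95.5 ± 7.38% with DMSO. At SQRDL it was 43.1 ± 20.1% with KDM5-C70 and 86.0 ± 9.63% with DMSO. The groups did not overlap at these 4 regions. At HDGF they did, with 41.1, 60.8 and 43.9% in the KDM5-C70 libraries, against 56.8, 84.2, 78.0, 87.2 and 87.9% in the DMSO libraries, where KDM5-C70 2 exceeded DMSO 1. Of all 13729 regions, 12.2% had a lower inner share in every KDM5-C70 library. Nothing is read from this comparison, since a wider region with the same inner bases has a lower share by construction.

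Called bases outside inner segments are the called width minus the inner bases, so they depend on the widths that chose the regions and are given as a description. They numbered 1521 ± 404 bp at ATP2A3, 1669 ± 356 bp at HDGF, 645 ± 109 bp at TRIM59, 731 ± 259 bp at COX8A and 1377 ± 571 bp at SQRDL with KDM5-C70 (SD, n = 3). With DMSO they numbered 176 ± 153 bp at ATP2A3, 423 ± 269 bp at HDGF, 45.8 ± 83.6 bp at TRIM59, 24.4 ± 40.1 bp at COX8A and 207 ± 112 bp at SQRDL (SD, n = 5). All 5 regions had more such bases in every KDM5-C70 library than in any DMSO library, as had 15.2% of the 13729 regions.

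**Figure D2:**
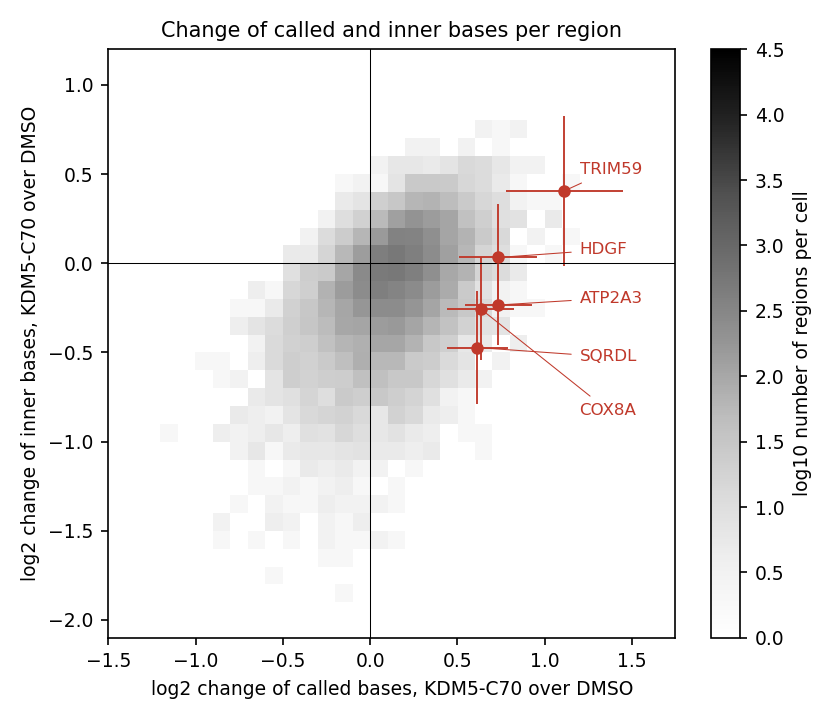
Log2 change of inner bases against log2 change of called bases, KDM5-C70 over DMSO, for the 12816 regions with inner segments in all 8 libraries (grey cells, log10 number of regions per cell) and the 5 described regions (red, bars are SE). The 5 lie to the right of most regions, from 0.61 to 1.11 in called bases, and between -0.47 and 0.41 in inner bases. Other regions lie further right.

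The end that was further out in every KDM5-C70 library differed between genes. ATP2A3 was called further out at both ends in every KDM5-C70 library. Its first called base was 3866530, 3865549 and 3865852 with KDM5-C70 and 3866781, 3866813, 3866604, 3866713 and 3866627 with DMSO. Its last called base was 3868742, 3868689 and 3868949 with KDM5-C70 and 3868477, 3868088, 3868491, 3868457 and 3868454 with DMSO. On the mean the left end lay 736 bp and the right end 336 bp outside the median DMSO position. Both ends were further out in every KDM5-C70 library in 4 (0.0291%) of all 13729 regions.

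HDGF widened on the left, which is the downstream side of this minus-strand gene (strands are those in RefSeq). Its left end lay 537, 1654 and 1511 bp outside the DMSO median in KDM5-C70 libraries, against -50, -534, 340, 0 and 74 bp in DMSO libraries, where negative values are inside. Its right end lay -145, 134 and 156 bp outside with KDM5-C70 and -12, -140, 0, 16 and 62 bp outside with DMSO, so the groups overlapped there.

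TRIM59, also on the minus strand, separated on the right, its upstream side. The right end lay 395, 491 and 627 bp outside the DMSO median with KDM5-C70 and 0, -25, -12, 20 and 15 bp with DMSO, so the control libraries ended close to each other. The left end also lay far out in KDM5-C70 2 and 3, at 622 and 564 bp, but in KDM5-C70 1 it was at -33 bp, inside that of DMSO 3, 4 and 5.

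COX8A, on the plus strand, separated on the left, its upstream side. The left end lay 479, 408 and 413 bp outside the DMSO median with KDM5-C70 and -15, -25, 0, 13 and 24 bp with DMSO. The 3 inhibitor libraries started close to each other here, and so did the 5 control libraries. The right end lay -108, 77 and 301 bp outside with KDM5-C70 and -118, -145, 39, 0 and 29 bp outside with DMSO, and the groups overlapped.

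SQRDL, on the plus strand, separated on the right, its downstream side. The right end lay 504, 617 and 1112 bp outside the DMSO median with KDM5-C70 and -79, -169, 54, 20 and 0 bp with DMSO. The left end lay -68, 32 and 141 bp outside with KDM5-C70 and 0, -157, -27, 47 and 2 bp outside with DMSO. Of the 4 genes with a known strand, TRIM59 and COX8A thus separated in all libraries at the upstream end, and HDGF and SQRDL at the downstream end. Of the 131 regions that met the criterion, 4 (3.05%) were further out at both ends in every KDM5-C70 library, 36 (27.5%) at the left end only, 49 (37.4%) at the right end only and 42 (32.1%) at neither. Over all 13729 regions, the left end was further out in every KDM5-C70 library in 2.43% and the right end in 2.32%.

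**Figure D3:**
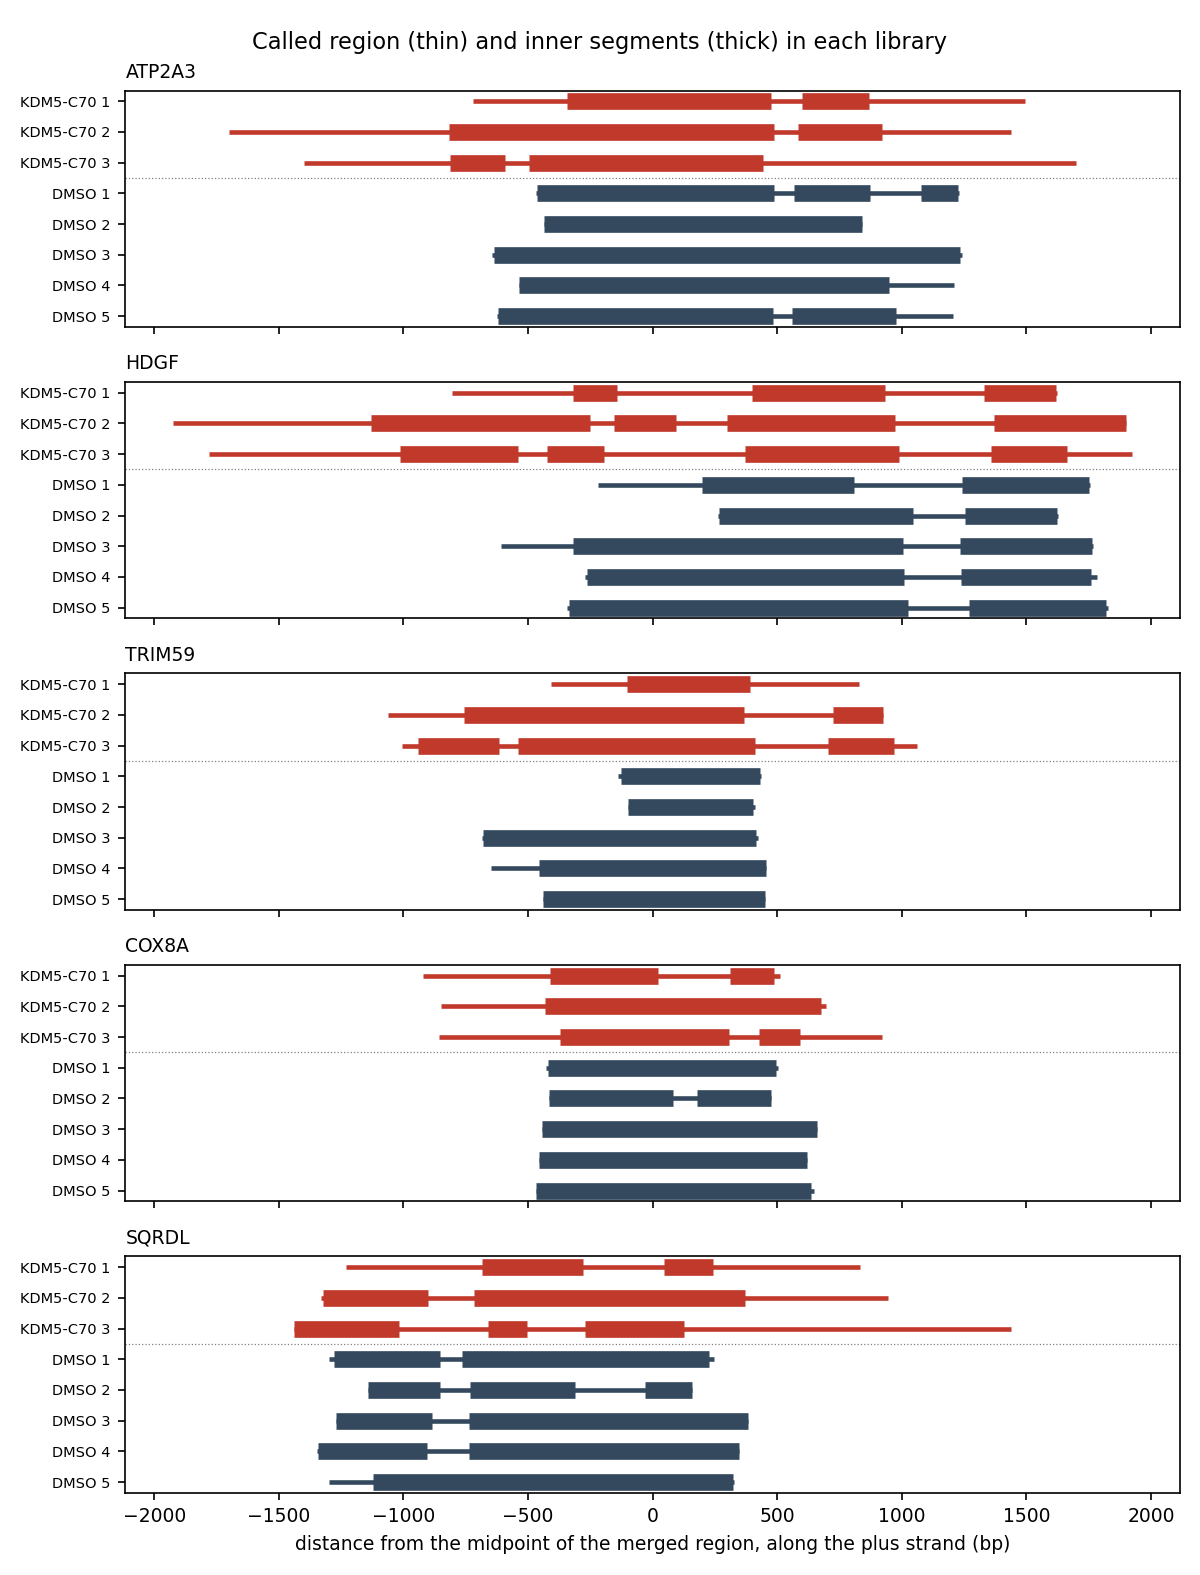
Called extent (thin lines) and inner segments (thick bars) of each library at the 5 regions, drawn as distance in bp from the midpoint of the merged region along the plus strand, with KDM5-C70 libraries in red above DMSO libraries in blue. In every KDM5-C70 library the extent ends further out than in any DMSO library on both sides at ATP2A3, on the left at HDGF and COX8A and on the right at TRIM59 and SQRDL; at TRIM59 the left end is also further out in KDM5-C70 2 and 3.

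An end that is further out in every KDM5-C70 library leaves a stretch called in all of them and in no DMSO library, so these stretches follow from the ends given above. The core of a region is the stretch called in all 8 libraries. At ATP2A3 the core was chr17:3866813-3868088 (1276 bp), and the inhibitor-only stretches were chr17:3866530-3866603 (74 bp) and chr17:3868492-3868689 (198 bp). At HDGF the core was chr1:156720743-156722100 (1358 bp) and the inhibitor-only stretch chr1:156719672-156719868 (197 bp). At TRIM59 the core was chr3:160167016-160167524 (509 bp) and the inhibitor-only stretch chr3:160167570-160167944 (375 bp).

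At COX8A the core was chr11:63742083-63742975 (893 bp) and the inhibitor-only stretch chr11:63741650-63742033 (384 bp). At SQRDL the core was chr15:45926862-45928160 (1299 bp) and the inhibitor-only stretch chr15:45928384-45928833 (450 bp). No base of the 5 regions was called in a DMSO library without also being called in at least 1 KDM5-C70 library. The union of the KDM5-C70 calls therefore contained every DMSO call at each of the 5. The choice of regions favours this, and its share over all regions was not counted, so nothing is read from it.

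The share of the bases beyond the DMSO extents that were inner differed between regions and libraries, and in KDM5-C70 1 there were no such inner bases. KDM5-C70 1 had 325, 197, 375, 455 and 450 called bases outside every DMSO list at ATP2A3, HDGF, TRIM59, COX8A and SQRDL, and 0 inner bases at each. KDM5-C70 2 had 1253, 1386, 848, 422 and 563 such called bases, of which 173, 588, 271, 16 and 0 were inner. KDM5-C70 3 had 1210, 1265, 926, 651 and 1152, of which 167, 404, 521, 0 and 94 were inner. ATP2A3, HDGF and TRIM59 thus had inner bases beyond the control extent in both KDM5-C70 2 and 3, and COX8A and SQRDL had few or none. How many of all regions have such bases in both KDM5-C70 2 and 3 was not counted, so nothing is read from it. Inner bases beyond every DMSO list were present in all 3 KDM5-C70 libraries in 141 (1.03%) of the 13729 regions, and none of the 5 was among them.

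Inner segments were split within the core in all 8 libraries at HDGF and in some at ATP2A3, COX8A and SQRDL. At TRIM59 they were split within it in none. At HDGF, 187 bp at chr1:156721525-156721711 were called in all 8 libraries and lay in an inner segment in none, so that the inner signal fell into parts on either side. HDGF had 3, 4 and 4 inner segments with KDM5-C70 and 2 in each DMSO library. Its additional segments with KDM5-C70 lay outside the core, to the left. COX8A had 2, 1 and 2 with KDM5-C70 and 1, 2, 1, 1 and 1 with DMSO. TRIM59 had 1, 2 and 3 with KDM5-C70 and 1 in each DMSO library, and the additional ones also lay outside the core. ATP2A3 had 2, 2 and 2 with KDM5-C70 and 3, 1, 1, 1 and 2 with DMSO. SQRDL had 2, 2 and 3 with KDM5-C70 and 2, 3, 2, 2 and 1 with DMSO. The numbers overlapped between the groups at every region but HDGF. How many of all regions separate in this way was not counted, so nothing is read from HDGF. Bases that were inner in every library numbered 787 at ATP2A3, 658 at HDGF, 467 at TRIM59, 441 at COX8A and 239 at SQRDL. Few bases were inner in all 5 control libraries but in none of the 3 inhibitor libraries, with 13 at ATP2A3, 91 at HDGF, 0 at TRIM59, 0 at COX8A and 16 at SQRDL.

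Ranking each region by width within its own library, among the 13729 regions called in all 8, removes a difference in width that a whole library shares. TRIM59 moved furthest on this scale, at percentiles 70.5, 74.5 and 76.2 with KDM5-C70 and 12.2, 20.7, 24.3, 31.9 and 16.5 with DMSO. ATP2A3 lay at 98.3, 98.6 and 98.3 with KDM5-C70 and at 88.7, 81.0, 75.2, 74.9 and 77.1 with DMSO. HDGF lay at 99.1, 99.9 and 99.8 with KDM5-C70 and at 94.7, 85.1, 91.0, 87.1 and 89.3 with DMSO.

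SQRDL was close to overlap on this scale, at 97.1, 85.4 and 96.6 with KDM5-C70 and 83.5, 82.1, 62.1, 72.2 and 66.6 with DMSO. COX8A did overlap, at 81.2, 50.3 and 61.9 with KDM5-C70 and 40.6, 54.4, 23.9, 30.1 and 30.7 with DMSO, since DMSO 2 ranked above KDM5-C70 2. When log2 widths were centred on each library's median, ATP2A3, HDGF and TRIM59 still separated, by 0.27, 0.31 and 0.64 on the log2 scale, while COX8A and SQRDL overlapped, with gaps of -0.08 and -0.07. Over all 13729 regions, 421 (3.07%) separated upward on this scale, and nothing is read from the members' count, since the same widths chose them. At COX8A and SQRDL, separation thus depended on the scale used.

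**Figure D4:**
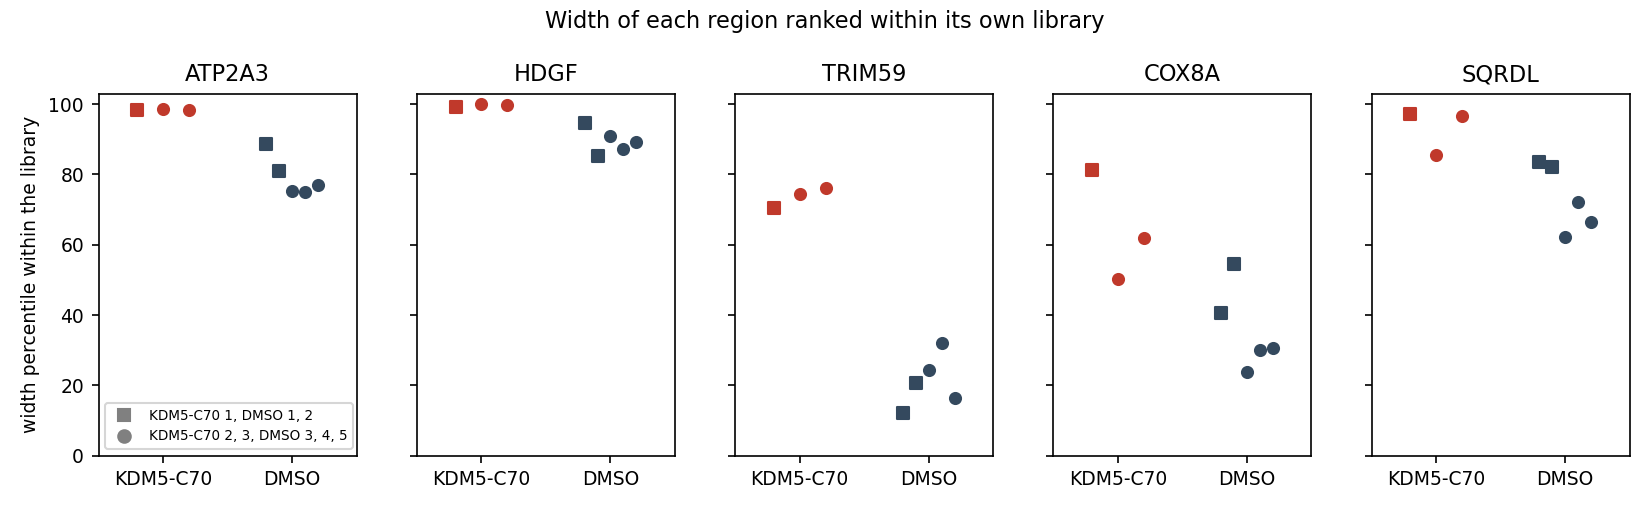
Percentile of each region's called width among the 13729 regions called in all 8 libraries, ranked within each library, for KDM5-C70 (red) and DMSO (blue). Squares are the 3 libraries with short lists and circles the other 5; TRIM59 lies at 70.5 to 76.2 with KDM5-C70 and at 12.2 to 31.9 with DMSO, and COX8A overlaps.

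By control width the 5 regions were of different kinds. The mean DMSO width placed HDGF at percentile 91.1 of the 13729 regions, ATP2A3 at 80.3, SQRDL at 74.0, COX8A at 33.4 and TRIM59 at 19.6. By log2 change in called width they ranked 22 (TRIM59), 199 (ATP2A3), 201 (HDGF), 373 (COX8A) and 418 (SQRDL) from the top, so many regions had larger mean changes but overlapping groups. The 5 shared their profile over the libraries, with Pearson's r of log2 called bases between 0.914 and 0.99 over 10 pairs of regions and 8 libraries. They share libraries and the choice that made the groups separate, so this is a description.

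None of the nearest neighbouring regions called in all 8 libraries met the criterion. Only 0.954% of all 13729 regions met it, so nothing is read from this. The nearest on either side of each gene, 10 in all, lay 6960 to 176238 bp away, and the groups overlapped in each. The closest was left of HDGF, at chr1:156709005-156711594, with 1679 ± 993 bp with KDM5-C70 (SD, n = 3) and 1055 ± 524 bp with DMSO (SD, n = 5), a log2 change of 0.60 (SE 0.54). The next was right of COX8A, 9615 bp away at chr11:63753037-63754727, with 1488 ± 214 bp with KDM5-C70 and 1306 ± 324 bp with DMSO. Log2 changes of the 10 neighbours ran from -0.30 left of COX8A to 0.60 left of HDGF.

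HDGF had the smallest gap of the 5, at 52 bp. The median gap among the 131 regions was 49 bp, and 61 of them had a larger gap than HDGF. Just outside it, chr11:64035784-64038331 missed by 1 bp, with 1873, 2397 and 2474 bp with KDM5-C70 and 1710, 1452, 1874, 1749 and 1718 bp with DMSO. Also by 1 bp, chr19:1274512-1276868 missed it, with 1913, 2080 and 2341 bp with KDM5-C70 and 1485, 1375, 1787, 1601 and 1914 bp with DMSO. The regions most like the mean profile of the 5 over the 8 libraries were chr20:44519331-44521275 (Pearson's r = 0.989), chr19:42926282-42928302 (r = 0.983) and chr4:183837735-183839632 (r = 0.981). The first had 1568, 1799 and 1867 bp with KDM5-C70 and 1180, 1119, 1380, 1341 and 1413 bp with DMSO, and its log2 change was 0.44 (SE 0.17). All of these like regions met the criterion. The lowest KDM5-C70 width was 1548 bp in the second and 1406 bp in the third, against highest DMSO widths of 1485 and 1380 bp. Likeness to a profile chosen by the criterion favours this.

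In the authors' deposited table, the fold enrichment of the 5 regions ran from 1.91 to 4.70 over the KDM5-C70 lists. Over the DMSO lists it ran from 1.59 to 4.57. At ATP2A3 it was 2.87, 2.24 and 2.74 with KDM5-C70 and 3.46 to 3.77 with DMSO. At HDGF it was 2.57, 3.12 and 2.50 with KDM5-C70 and 3.22 to 4.57 with DMSO. Every KDM5-C70 value was thus below every DMSO value there, while the groups overlapped at TRIM59, COX8A and SQRDL. The percentile of fold enrichment within the list ran from 19.0 to 96.3 with KDM5-C70 and from 5.90 to 83.6 with DMSO. By percentile the groups overlapped at ATP2A3 and HDGF too. How many of all regions separate was not counted, so nothing is read from this. The deposited -log10 q-value was at least 5 in 2 of the 15 KDM5-C70 entries (TRIM59 in KDM5-C70 2 and COX8A in KDM5-C70 1) and in 16 of the 25 DMSO entries. Each list has its own scale of q-values, with 3028 to 7036 regions at or above 5 per KDM5-C70 list and 6394 to 19917 per DMSO list, so these counts are not compared between groups.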

How the data were processed

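The lists deposited by the authors, 1 per library, hold region and inner-block positions in bp, and per the submitters' processing notes MACS2 2.1.0, HOMER 4.8, Bowtie 1.1.2 and Trim Galore 0.40 were used, and the build was GRCh37. For caller settings and an input library the sources used here give nothing. Each row also carries values deposited by the authors, namely a display score (not used), a fold enrichment over background, and −log10 values for p and q. No read counts were used, so depth is unknown.

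Regions on chromosomes 1 to 22 and X were joined where they overlapped by at least 1 bp. Called bases of a library are its bases in a merged region, and blocks of 1 bp, which mark ends, were left out of inner bases. Called bases were compared over all 13729 regions called in all 8 libraries with limma 3.58.1 in R 4.3.3 (log2, variance trend, 2-sided, Benjamini-Hochberg adjustment at 0.05), and the self-written steps were tested on simulated data. SE values come from that fit, and from the same fit on inner bases. The remaining work was done in Python 3.11.15 (pandas 2.3.3, numpy 2.4.6, matplotlib 3.10.9, scipy 1.17.1).

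The 5 regions and the measures were chosen with earlier results of these data known. The regions named by rule are the member with the smallest gap, the 2 regions that miss the criterion by the least, the 3 with the highest Pearson's r to their mean profile, and the nearest neighbours. Alternatives were stricter lists, lists of equal length (the 15323 widest regions), joining within 1000 bp, centring, a replicate block, no variance trend, regions with a call in 2 or more libraries per group (pseudocount 200 bp), and leaving out each library. A term for the 2 sets of libraries was added after seeing the data. Regions on other chromosomes were not analysed.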

Additional observations from a re-analysis of the deposited data

Results flagged for a closer look

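A search for single libraries far from the others of their group was run on 20 sets of 5 DMSO values, and by chance it marks about 5% of them. It marked 2, both in DMSO 2. At ATP2A3 the last called base was 3868088 in DMSO 2, while the other DMSO libraries ended between 3868454 and 3868491. At SQRDL, DMSO 2 had 895 inner bases and the others 1417 to 1522. DMSO 2 also has the shortest list, of 15323 regions.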

How the results depend on the processing

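Log2 changes of called bases at the 5 regions ran from 0.46 to 1.35 over 80 alternative values, whose sign the choice of regions largely fixes. Those of inner bases, which did not choose the regions, kept their sign in 52 of 55, from -0.80 to 0.92. Leaving out 1 library, they ran from -0.42 to -0.12 at ATP2A3, -0.26 to 0.35 at HDGF, 0.10 to 0.92 at TRIM59, -0.46 to -0.03 at COX8A and -0.80 to -0.14 at SQRDL, the highest of each without KDM5-C70 1. The lowest was without KDM5-C70 3 at TRIM59 and without KDM5-C70 2 at the other 4. The 0 limma calls over all regions became 2 narrower ones with the replicate block, in which DMSO 4 and 5 have numbers of their own, and 1 narrower among the 10 regions left with a −log10 q-value of at least 5. None of the 5 regions was called in these fits, and with the stricter lists none was called as a region in all 8 libraries. Centring alone gave 0 calls, as did the set of libraries as a term, an alternative chosen after seeing the data. Both together, also chosen then, gave 27 limma calls, 5 wider and 22 narrower. ATP2A3, HDGF and TRIM59 were among the 5 wider ones, but were chosen from this contrast, so nothing is read from it. The number of limma calls was 0 without each library in turn.

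The 131 regions wider in every KDM5-C70 library became 421 with centring, 0 with stricter lists and 3 with inner bases only. Leaving out each library gave 135 to 5481, with 5481 without KDM5-C70 1 and 343 without DMSO 3. Of the 5 genes, 3 met the criterion with centring and 0 with inner bases only. Leaving out a library cannot lower that number. The same-numbered libraries had correlations of deviations from their group means of 0.367, -0.306 and 0.318 for numbers 1, 2 and 3. KDM5-C70 3 correlated best with its own number, and KDM5-C70 1 and 2 correlated better with other numbers. The signs followed the 2 sets of libraries, so these correlations cannot decide whether same-numbered libraries were paired. The depth of the lists is unknown, so bases not called in DMSO libraries may still carry the mark.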
